A study of Mus musculus with 6 samples.

Results

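Nuclear receptors are transcription factors that carry a zinc-finger DNA-binding domain and, in most members, a pocket for a small lipophilic ligand such as a steroid, a thyroid hormone, a fatty acid, an oxysterol or a form of vitamin D. Many of them, the vitamin D receptor VDR among them, bind DNA as a heterodimer with a retinoid X receptor (RXR) and switch between corepressors and coactivators when ligand arrives. In the testis, nuclear receptors are known from Sertoli, Leydig, peritubular and germ cells, and in the adult tract also from the efferent ducts and the epididymis. The group described here was chosen by name: 35 nuclear receptor genes, headed by Vdr, without the retinoic acid receptors and several other receptors. The choice was made with earlier results of these data known. Probes were matched to the 35 genes by the platform's gene symbol, brought up to date. Of the 35 genes, 33 had at least 1 probe and 61 probes in all, out of 19057 genes and 45281 probes on the array. Nr1h2 and Nr2e3 were not analysed here.

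The samples were testis pairs of 6 mouse fetuses of mixed B6/CD1 background, 3 overexpressors and 3 controls, taken at embryonic day 14.5. Overexpressors were Amh-cre;RosaNICD/+. That is, they carried the Tg(AMH-cre)1Flor transgene, whose AMH promoter drives Cre in Sertoli cells. They also carried 1 copy of the floxed Gt(Rosa)26Sortm1(Notch1)Dam/J allele, which after recombination makes the constitutively active intracellular domain of NOTCH1. Controls were RosaNICD/+ littermates, which carried the same allele and no Amh-cre, so effects of the Cre transgene and of active NOTCH1 cannot be told apart. Each of 3 dams gave 1 overexpressor and 1 control, each fetus had 1 array of its own, its gonads were separated from the mesonephroi, and replicates 1 to 3 below are dams 1 to 3.

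Per array, 19459 to 20285 of 45281 probes were above background, meaning a detection p under 0.05 against the array's negative controls. Notch1 itself had log2 intensities of 8.97, 8.61 and 8.87 in overexpressors and 8.32, 7.71 and 7.98 in controls, a difference of 0.81 ± 0.19 (SE) on the log2 scale that did not pass (adjusted p = 0.162). Its only probe cannot check the genotypes, since no source used here says whether it lies in the stretch of Notch1 that the Rosa allele encodes. Of 8 Sertoli cell markers with a probe, all 8 were above background on all 6 arrays, as were 7 of 7 for fetal Leydig cells and 7 of 10 for germ cells. Mael and Sycp3 of the germ cell list, Cnn1 of the myoid list and Epcam, Emx2 and Wnt9b of the mesonephric and epithelial list were above background on no array. These are bulk samples, so more cells of a type and more RNA per cell cannot be told apart.

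Vdr, which encodes the receptor for the active form of vitamin D, was the 1 nuclear receptor of this group whose transcript rose in overexpressors. By its brightest probe it was 2.27-fold higher. The promoter that RefSeq gives for Vdr is shown here because Vdr is the member whose level changed. It is on the minus strand of GRCm38.p6 at chr15:97908247-97908546 and is printed in the direction of transcription, from 250 bases before the start to 50 bases after it. Capitals mark the GC box GGGCGG, the letters bound by SP-family factors.
Vdr promoter: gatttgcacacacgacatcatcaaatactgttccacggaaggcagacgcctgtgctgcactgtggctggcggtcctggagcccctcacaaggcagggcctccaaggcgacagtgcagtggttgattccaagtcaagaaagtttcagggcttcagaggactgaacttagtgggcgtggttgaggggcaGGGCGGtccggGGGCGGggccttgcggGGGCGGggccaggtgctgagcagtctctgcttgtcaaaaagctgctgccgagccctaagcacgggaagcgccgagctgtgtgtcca

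The window is 61.3% G and C and holds 3 GC boxes, which start 63, 52 and 36 bases before the start site. The GC box was added to the search after the sequence had been seen. It occurs on either strand in 35.7% of the 32851 mouse promoter windows of this length. The letters TGGGAA, the core of the site bound by RBPJ, through which NOTCH acts on DNA, were searched on both strands and do not occur in the Vdr window, and 25.6% of all windows hold them. AGGTCA, the element that many nuclear receptors bind as one arm of a repeat, is also not in this window, against 16.3% of all windows. Of the 35 genes, 32 had a promoter in the RefSeq table, with 47 windows together, of which 13 hold TGGGAA, 8 hold AGGTCA and 22 hold GGGCGG. A missing match says only that these letters are not in these windows.

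The array carries 3 Vdr probes, and all 3 were higher in every overexpressor than in any control. The brightest probe, ILMN_2445166, had log2 intensities of 7.85, 7.41 and 7.49 in overexpressors 1 to 3, against 6.31, 6.38 and 6.51 in controls 1 to 3. The second, ILMN_2445165, had 7.24, 6.79 and 6.81 in overexpressors and 5.89, 5.67 and 5.69 in controls. The third and dimmest, ILMN_2864062, had 6.27, 6.10 and 5.96 in overexpressors and 5.30, 4.91 and 5.10 in controls. Overexpressor 1 was the highest array for each probe, and the groups did not overlap for any of them. The third probe lies close to background, since it was above it in 3 of 3 overexpressors and 2 of 3 controls, while the others were above it on all 6 arrays. All 3 probes read the same RNA on the same 6 arrays, so they are not independent measurements. Where they lie in the Vdr transcript is not known here.

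**Figure D1:**
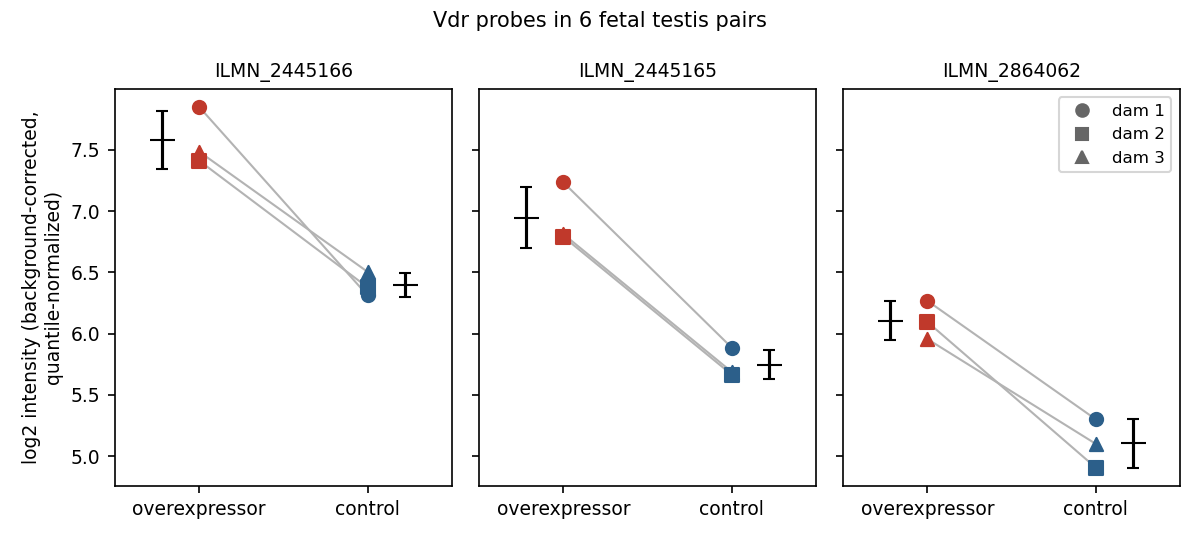
Log2 intensity (vertical axis) of the 3 Vdr probes, a panel each, in overexpressors (red) and controls (blue). Marker shapes are dams, grey lines join littermates, and black bars give the mean ± SD of 3 arrays. For the brightest probe the overexpressors sit at 7.41 to 7.85 and the controls at 6.31 to 6.51.

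The brightest probe averaged 7.58 ± 0.23 in overexpressors and 6.40 ± 0.10 in controls (SD, n = 3 each). Its log2 fold change was 1.18 ± 0.16 (SE), with a 95% interval of 0.83 to 1.54 and an adjusted p of 0.0164 in limma. The other 2 probes rose by 1.20 ± 0.16 (adjusted p = 0.0184) and 1.00 ± 0.15 (adjusted p = 0.0358) on the log2 scale. Within litters the overexpressor stood above its control sibling by 1.54, 1.03 and 0.98 in dams 1 to 3 for the brightest probe, by 1.35, 1.13 and 1.12 for the second and by 0.97, 1.19 and 0.86 for the third. So the difference of dam 1 was the largest for the first pair of probes and that of dam 2 for the third. With the dam as a block the adjusted p-values were 0.0320, 0.0146 and 0.0292. Among 1341 genes with 3 or more tested probes, 2 had every probe past the threshold (0.149%), Vdr being 1 of them. Of all 19889 probes tested, 0.568% passed. The group headed by Vdr was chosen with earlier results of these data known, so these shares add no support for the rise of Vdr.

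In the untransformed bead signal, before any correction, the brightest Vdr probe read 372.1, 253.5 and 242.0 in overexpressors and 174.9, 165.4 and 157.1 in controls. Each of these 3 probes was read from 32 to 49 beads per array, with a standard error between beads of 3.11 to 5.87% of the signal. The error between beads is technical and does not cover the variation between fetuses, and these signals are not scaled between arrays. The size of the difference depends on how background is handled. Without background correction the brightest probe stood at 0.71 on the log2 scale (adjusted p = 0.0124), and in the authors' processed table at 0.64 (adjusted p = 0.0196). The third probe then stood at 0.37 (adjusted p = 0.104) and 0.30 (adjusted p = 0.161), and it did not pass either when all probes on the array were tested (adjusted p = 0.0714). It was also lost when any 1 array was omitted (adjusted p from 0.0595 to 0.168). The call of the brightest probe, and that of the second, was lost without overexpressor 1 (adjusted p = 0.0635 for the brightest), control 1 (0.0950), control 2 (0.0726) or control 3 (0.0528). The log2 fold change of the brightest probe was 1.05 to 1.27 whichever array was left out.

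Markers of several cell types moved as follows between the same arrays, and their part in the Vdr result was not tested. Of the 8 duct and epithelial markers tested, 1 fell, Ret, by 1.90 ± 0.29 on the log2 scale, where 0.173% of all genes tested fell. Which cells in the samples these transcripts came from was not tested. The other 7 did not pass. Of those 7, Lhx1 (-1.38 ± 0.31), Cdh1 (-0.93 ± 0.17) and Krt8 (-0.43 ± 0.19) leaned lower, while Pax8, Cdh16, Krt18 and Hoxd10 lay between -0.05 and -0.02. The summed linear intensity of the list was 2376 to 2760 in overexpressors and 3301 to 3335 in controls. The summed intensity of the 8 Sertoli markers was 34500 to 38690 in overexpressors and 24130 to 28240 in controls, most of it from the bright Cst9 and Aard. Among those 8 markers 4 were higher and 4 lower. The cystatin gene Cst9 was the 1 that rose, by 0.83 ± 0.13, where 0.555% of all genes tested rose. Amh had the largest difference of the list at -1.24 ± 0.38, lower by 1.59, 1.53 and 0.61 in dams 1 to 3. It did not pass (adjusted p = 0.320, or 0.0749 with the dam as a block). Ptgds stood at -0.53 ± 0.27, Aard at 0.44 ± 0.12, Sox9 at 0.15 ± 0.18 and Dhh at -0.31 ± 0.21. The sums of the 10 germ cell markers overlapped (6346 to 10450 in overexpressors, 8541 to 12820 in controls), and so did those of fetal Leydig, interstitial, myoid, endothelial, macrophage and erythroid markers.

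Of the 33 nuclear receptor genes with a probe, 16 were above background on at least 3 of 6 arrays and so were tested, 5 were so on 1 or 2 arrays and 12 on none. The 16 tested are 48.5% of the 33, against 57.7% of all 19057 genes with a probe. Among the 16, 1 rose, 0 fell and 15 did not pass, where 0.727% of all 10999 genes tested changed, 0.555% rising. With the dam as a block the count was again 1, against 1.05% of all genes. Since the group was chosen with earlier results known, these shares add no support for the call. Among the 16 genes 6 leaned higher and 10 leaned lower, where 5422 of all genes tested were higher and 5577 lower. The median difference of the 16 was -0.07 on the log2 scale, against -0.0032 for all genes tested. The groups did not overlap for 3 of them, Vdr, Esr1 and Nr2f6, against 14.9% of all genes, and 7 moved the same way in all 3 dams, against 39.1%. The 15 other tested receptors had log2 fold changes from -0.65 to 0.68 and adjusted p-values from 0.465 to 0.999.

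**Figure D2:**
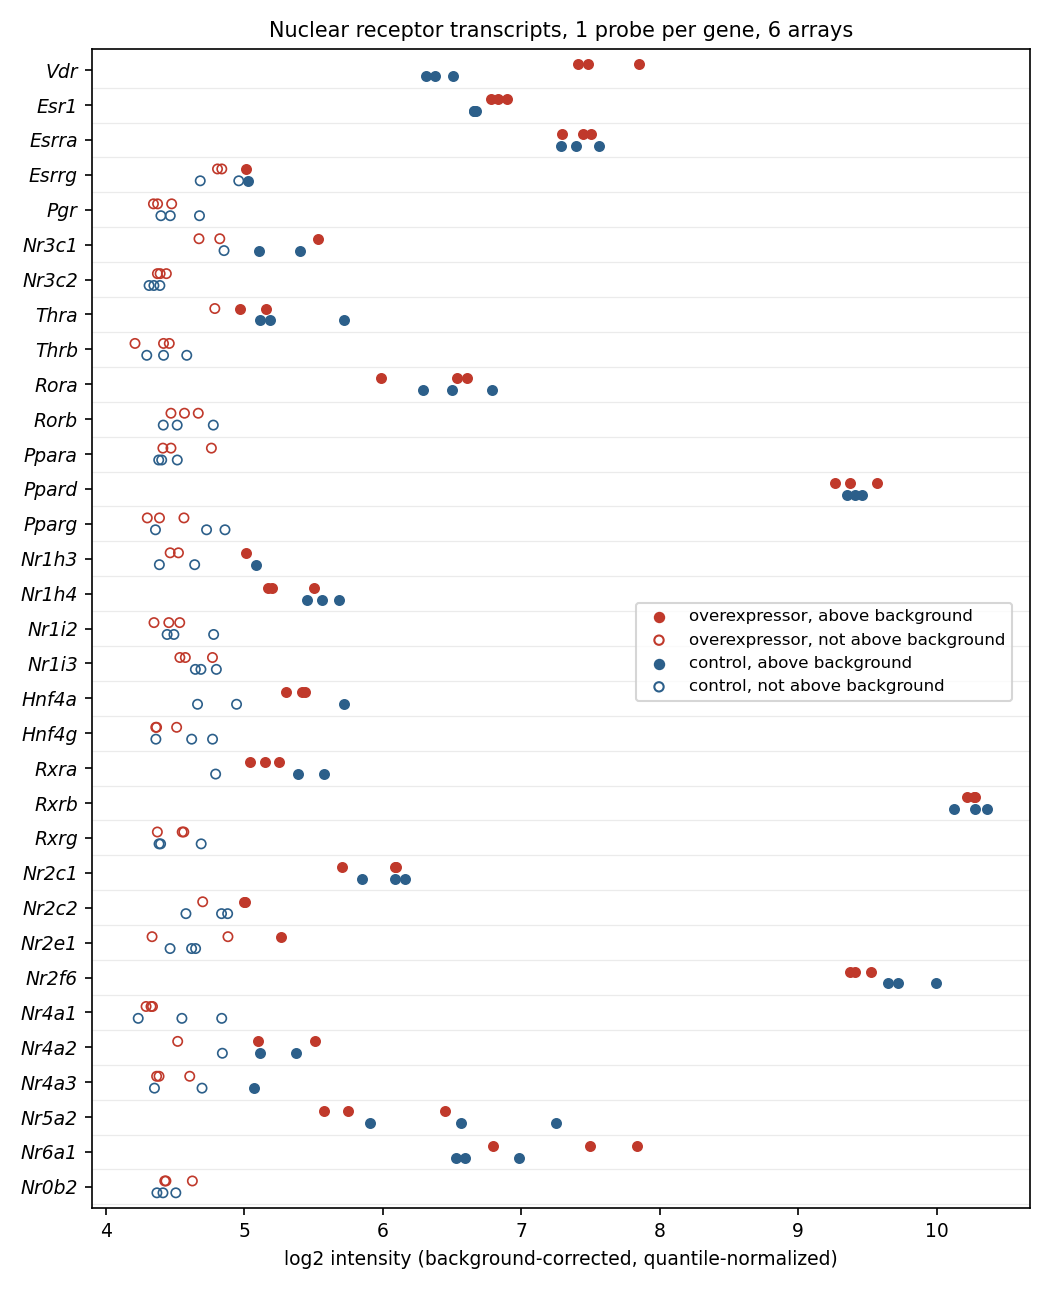
Log2 intensity (horizontal axis) of the probe that stands for each of the 33 nuclear receptor genes, with 3 overexpressors (red, upper row of a gene) and 3 controls (blue, lower row). Filled points are above background, open points are not. Points of different genes come from different probes and do not rank transcript amounts. Vdr is the gene whose red and blue points are farthest apart among those above background on all arrays.

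The RXRs, the shared dimer partners of VDR, of the thyroid hormone receptors and of the PPARs, did not pass. Rxrb, by its brightest probe, had log2 intensities of 10.22, 10.28 and 10.27 in overexpressors and 10.36, 10.28 and 10.12 in controls. These values overlap, and the log2 fold change was 0.0008 ± 0.13 with a 95% interval of -0.29 to 0.29. A dimmer Rxrb probe stood at -0.42 ± 0.25 (adjusted p = 0.667), where overexpressor 1 was the lowest array at 4.96. Rxra stood at -0.10 ± 0.20 and was above background in 3 of 3 overexpressors and 2 of 3 controls. Rxrg, which in adults is known mainly from muscle and brain, was above background on no array.

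Among the steroid receptors and their relatives, Esr1, which encodes the oestrogen receptor alpha, had a small difference. Its log2 intensities were 6.90, 6.83 and 6.78 in overexpressors and 6.66, 6.66 and 6.67 in controls. Each overexpressor was above every control, but the log2 fold change was 0.17 ± 0.12 (adjusted p = 0.715), and the other 3 Esr1 probes were above background on no array. Esrra, the gene of an orphan receptor that drives genes of mitochondrial metabolism, had 7.30, 7.45 and 7.50 in overexpressors and 7.39, 7.56 and 7.29 in controls. The groups overlapped, with a log2 fold change of 0.0034 ± 0.14 and a 95% interval of -0.31 to 0.32. Its dimmer second probe stood at 0.27 ± 0.13 with groups that did not overlap (95% interval -0.02 to 0.57, adjusted p = 0.572). The intervals of the 2 Esrra probes overlap. Nr3c1, which encodes the glucocorticoid receptor, was near background, above it in 1 of 3 overexpressors and 2 of 3 controls, and stood at -0.11 ± 0.24. Esrrg was above background on 2 arrays at most, and Nr3c2 (the mineralocorticoid receptor) and Pgr (the progesterone receptor) on none.

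Of the thyroid hormone receptors, Thra was above background in 2 of 3 overexpressors and 3 of 3 controls and stood at -0.37 ± 0.19 (adjusted p = 0.616), lower in all 3 dams by 0.03, 0.75 and 0.32. Thrb was above background on no array. Rora, a constitutively active receptor that also feeds into the circadian clock, ranged from 5.99 to 6.79 over the 6 arrays and stood at -0.15 ± 0.20, lower in dam 2 only. Rorb was above background on no array.

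Among the receptors for fatty acids, oxysterols and bile acids, Ppard and Nr1h4 were above background on all 6 arrays. Ppard, which encodes the broadly expressed fatty acid sensor PPAR delta, had log2 intensities of 9.37, 9.27 and 9.57 in overexpressors and 9.46, 9.35 and 9.41 in controls. The groups overlapped, and the log2 fold change was -0.005 ± 0.13 with a 95% interval of -0.31 to 0.30. Ppara and Pparg, which encode the receptors that drive fatty acid oxidation in liver and fat cell differentiation, were above background on no array, with 1 and 3 probes. Nr1h3, which encodes the liver X receptor alpha, was above it on 2 arrays. Nr1h4, which encodes the bile acid receptor, ranged from 5.17 to 5.69 over the 6 arrays and stood at -0.28 ± 0.15 (adjusted p = 0.620), lower in all 3 dams. The xenobiotic sensors Nr1i2 and Nr1i3 (1 and 5 probes) were above background on no array.

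Nr2f6, which encodes an orphan receptor of the COUP-TF family, leaned lower in overexpressors. It had log2 intensities of 9.37, 9.41 and 9.53 in overexpressors and 9.72, 9.997 and 9.65 in controls. Every overexpressor was below every control, with a log2 fold change of -0.35 ± 0.14 and a 95% interval of -0.68 to -0.03, but the adjusted p was 0.487 (0.313 with the dam as a block). Nr2c1, a testicular orphan receptor gene, stood at -0.07 ± 0.16. Nr2c2, its close relative, was above background in 2 of 3 overexpressors and 0 of 3 controls, and Nr2e1, known from neural stem cells, in 1 of 3 and 0 of 3, so neither was tested. Hnf4a, a liver and gut regulator, was above background in 3 of 3 overexpressors and 1 of 3 controls and stood at 0.28 ± 0.25 (adjusted p = 0.799). Hnf4g was above background on no array.

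Nr6a1, which encodes germ cell nuclear factor, an orphan repressor known to silence Pou5f1 in mouse embryos and expressed in germ cells, had the largest positive difference after Vdr. Its log2 intensities were 7.50, 7.84 and 6.79 in overexpressors and 6.53, 6.98 and 6.59 in controls. Overexpressors 1 and 2 stood above all controls, overexpressor 3 lay below control 2, and within litters the differences were 0.97, 0.85 and 0.20. The log2 fold change was 0.68 ± 0.26 with a 95% interval of 0.08 to 1.27 and an adjusted p of 0.465 (0.183 with the dam as a block). Nr5a2, which encodes a receptor of pluripotent and steroid-making cells, leaned the other way at -0.65 ± 0.35 (adjusted p = 0.626, or 0.206 with the block), lower by 0.16, 0.80 and 0.99 in dams 1 to 3. Dam 2 held the highest Nr5a2 array of each group, control 2 at 7.25 and overexpressor 2 at 6.45. So the groups overlapped although every pair went the same way by this brightest probe. A dimmer Nr5a2 probe, above background on 2 arrays, differed by 0.07, -0.90 and -0.12 in dams 1 to 3. Another, above background on no array, differed by -0.13, -0.03 and 0.31. Of 8 germ cell markers tested in the same arrays, 7 were lower, with a median of -0.40 for the 8. These 7 were Dazl (-0.05), Pou5f1 (-0.16), Ddx4 (-0.24), Tdrd1 (-0.57), Dppa3 (-0.78), Dnd1 (-1.06) and Nanos3 (-1.17). Kit went the other way at 0.73 ± 0.19 (adjusted p = 0.249), higher in all 3 dams, with groups that did not overlap. Of all 10999 genes tested, 5577 were lower. Of the 8 markers 0 passed (1 with the dam as a block, against 1.05% of all genes). The part of germ cell markers in the Nr6a1 and Nr5a2 values was not tested.

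The NR4A genes, immediate-early receptors that work without a known ligand, were at or near background. Nr4a2 was above it in 2 of 3 overexpressors and 2 of 3 controls and stood at -0.07 ± 0.25, with differences of 0.67, -0.60 and -0.27 in dams 1 to 3. Nr4a3 was above background on 1 array and Nr4a1 on none. Nr0b2, which encodes a receptor-like corepressor without a DNA-binding domain, was also above background on none. The 12 genes above background on no array had log2 intensities of 4.21 to 4.86 by their brightest probes, which sets no level for them.

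**Figure D3:**
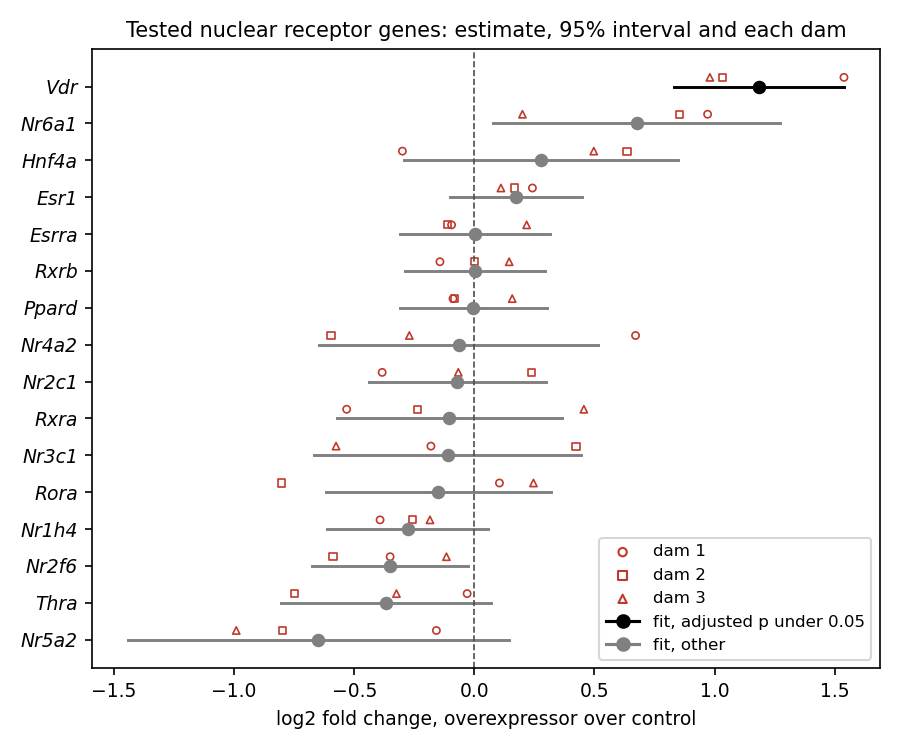
Log2 fold change of overexpressors over controls (horizontal axis) for the 16 tested nuclear receptor genes, sorted by size, with 95% intervals from the limma fit and the difference within each dam as open red markers. The interval of Vdr, 0.83 to 1.54, lies farthest from 0, and those of Nr6a1 and Nr2f6 also leave out 0 but did not pass after adjustment over all probes.

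Genes of the pathways that these receptors belong to were followed in 7 lists, together 104 genes with 60 tested, of which 2 rose, 0 fell and 58 did not pass, where 0.727% of all genes tested changed and 0.555% rose. The lists were chosen with earlier results of these data known. So this share, and those of the single lists below, add no support for the genes called. The 60 genes had a median log2 fold change of -0.02. Of 18 genes that handle vitamin D or respond to VDR, 6 were tested and 0 passed by limma, also with 0 at an unadjusted p under 0.05 and 0 with the dam as a block. Cyp24a1, which encodes the enzyme that breaks down active vitamin D and is a classical VDR target, was above background on 1 of 6 arrays, an overexpressor. Cyp27b1 and Cyp2r1, which encode the hydroxylases that activate vitamin D, and the calcium-binding protein gene Calb1 were above it on none. S100g, which encodes another vitamin D-dependent calcium-binding protein, was above it in 1 control, and the calcium channel gene Trpv6 in 2 controls by 1 of 3 probes. Cyp27a1 (0.21 ± 0.16), Pdia3 (-0.14 ± 0.13) and Lrp2 (0.32 ± 0.30) had the smallest unadjusted p of the list. The rest of the tested genes were Dhcr7 (-0.10 ± 0.15), Cdkn1a (0.02 ± 0.17) and Atp2b1 (-0.11 ± 0.23). Most of the 18 genes were not tested, and the list mixes handling genes with targets, so 0 passing does not measure the response to VDR. Dimmer Cyp27a1 probes differed in sign, ILMN_2960114 at -0.22 ± 0.15 and ILMN_2620326 at 0.30 ± 0.15. The other Lrp2 probes were above background on no array.

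Among 19 tested coregulators, the proteins that receptors recruit to repress or activate genes, 0 passed. Of the 19, 13 were higher, with a median of 0.12, where 5422 of all 10999 genes tested were higher. Hr, which encodes the corepressor Hairless, known to bind VDR and the thyroid hormone receptors, had log2 intensities of 7.40, 7.21 and 7.24 in overexpressors and 6.48, 5.98 and 6.60 in controls. The groups did not overlap, but the log2 fold change of 0.93 ± 0.18 had an adjusted p of 0.0892 (0.0619 with the block), and it passed only with a larger offset before the log2 step (0.71, adjusted p = 0.0394). Nsd1, a histone methyltransferase gene, stood at 0.55 ± 0.14 and Nrip1, a corepressor gene, at 0.48 ± 0.19.

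Of 11 tested genes of glucocorticoid action 1 rose, against 0.555% of all genes tested. It was Klf9, which encodes a Krüppel-like factor that glucocorticoid and thyroid hormone are known to induce, with 8.11, 8.22 and 8.44 in overexpressors and 6.93, 7.12 and 7.46 in controls. All overexpressors were above all controls, and Klf9 rose by 1.09 ± 0.17 on the log2 scale in limma, with an adjusted p of 0.0397. It no longer passed when all probes were tested (adjusted p = 0.10) or when any array but control 3 was omitted (adjusted p from 0.104 to 0.159). The other 10 did not pass. Among known glucocorticoid targets, Tsc22d3 stood at 0.05 ± 0.16, Fkbp5 at 0.16 ± 0.16, Per1 at -0.22 ± 0.18 and Sgk1 at -0.47 ± 0.14 (adjusted p = 0.308), and the chaperone gene Fkbp4 at 0.24 ± 0.15. Of 10 genes of thyroid hormone handling 2 were tested, Slc16a10 (0.20 ± 0.31) and Thrap3 (0.02 ± 0.14).

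Of 7 tested PPAR targets 1 rose, against the same 0.555%. Fabp3, which encodes a fatty acid-binding protein of heart and other tissues, had 9.30, 8.96 and 9.01 in overexpressors and 8.17, 8.14 and 8.20 in controls. The groups did not overlap, and Fabp3 rose by 0.92 ± 0.14 (log2 scale, adjusted p = 0.0342), but it no longer passed when any single array was omitted (adjusted p from 0.0647 to 0.148). Cpt1b, of fatty acid import into mitochondria, stood at 0.80 ± 0.21 (adjusted p = 0.251). A dimmer Cpt1b probe stood at 0.43 ± 0.23 (adjusted p = 0.620). Its groups overlapped, with differences of -0.14, 0.57 and 0.85 in dams 1 to 3. Lpl, which encodes lipoprotein lipase, stood at -0.67 ± 0.17 (adjusted p = 0.209). Lpl was lower in every overexpressor (10.94, 10.83 and 11.36) than in any control (11.62, 11.71 and 11.81). So the members of this list with the largest differences went both ways, and the list's median was -0.02.

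Of 8 tested liver X receptor targets and oxysterol enzymes 0 passed and 7 were lower, where 5577 of all 10999 genes tested were lower. The list's median was -0.11. Scd2 stood at -0.32 ± 0.21, Scd1 at -0.31 ± 0.19 and the oxysterol hydroxylase gene Cyp7b1 at 0.32 ± 0.13. Of 7 tested genes of oestrogen and progesterone action 0 passed without the block. Hsd17b1, which encodes a hydroxysteroid dehydrogenase that is made by fetal mouse Sertoli cells, had 8.90, 8.14 and 9.77 in overexpressors and 10.38, 9.81 and 10.57 in controls. The groups did not overlap, and the log2 fold change was -1.32 ± 0.38, with an adjusted p of 0.293, or 0.0449 with the dam as a block. Gper1 stood at -0.33 ± 0.16 and Greb1, a target of oestrogen receptor, at -0.22 ± 0.24.

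**Figure D4:**
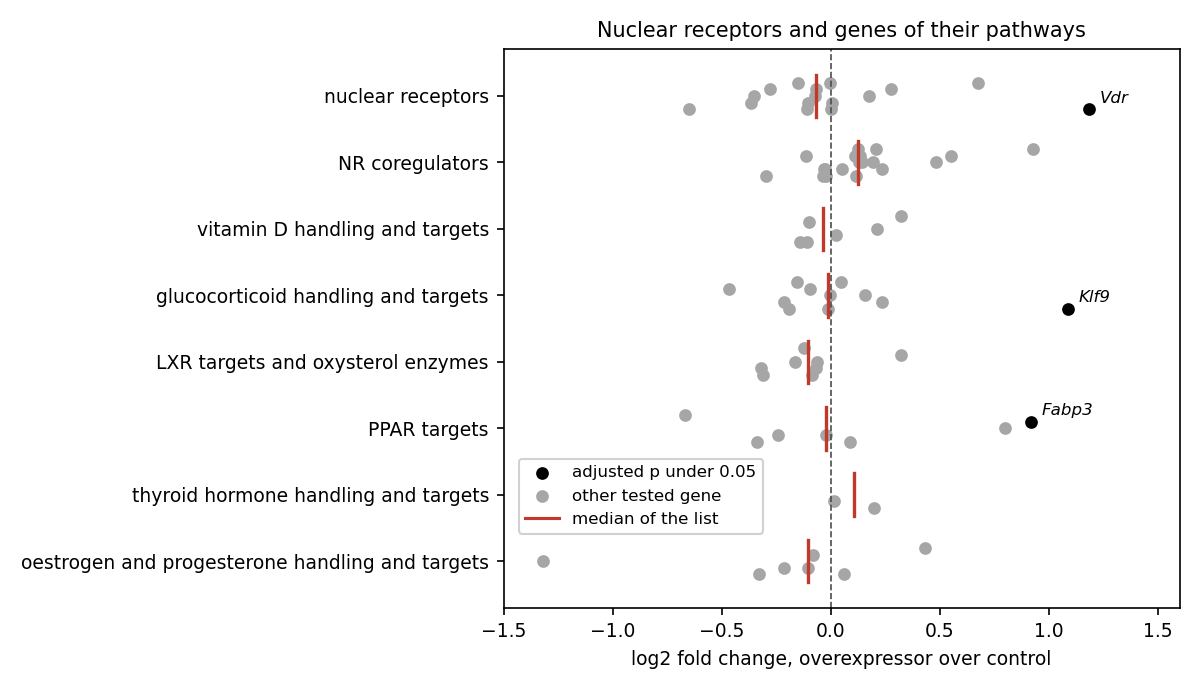
Log2 fold change of overexpressors over controls (horizontal axis) for each tested gene of the nuclear receptor group and of 7 pathway lists (rows); NR stands for nuclear receptor. Black points passed an adjusted p of 0.05 (Vdr, Klf9 and Fabp3), grey points did not, and red bars are the list medians, from -0.11 to 0.12.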

How the data were processed

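RNA from 6 testis pairs was hybridised to 1 Illumina BeadChip each. The submitters' processing notes name GenomeStudio 2010.3. The table the authors deposited holds each probe's mean bead intensity before normalization, its detection p-value, its bead number and the standard error between beads, per the file headers. The authors' processed table holds the same intensity on a linear scale, times 1 factor per array (0.855 to 1.15). Its column medians were 105.0, 110.9 and 113.3 in overexpressors and 108.1, 112.0 and 117.5 in controls.

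Intensities were background-corrected from the detection p-values, quantile-normalized and log2-transformed (neqc, offset 16; limma 3.58.1, R 4.3.3). Probes with detection p under 0.05 on at least 3 of 6 arrays (19889) were compared between all overexpressors and all controls with limma's two-sided moderated test, Benjamini-Hochberg adjusted over these probes. A probe with an adjusted p under 0.05 passed the test ("rose", "fell"), which 113 did (81 higher). The SE and 95% intervals are the fit's. The brightest tested probe stands for a gene. Of 34885 probes with 1 symbol, 34807 took the current symbol that GRCm38.p6 gives their Entrez identifier. The fit was tested on simulated data.

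Labels give the dam, so equal numbers mark litters. Littermates deviated from their group means together (correlations across probes 0.252, 0.426 and 0.304). The main fit has no dam term. Alternatives were a blocked fit (dam), no background correction, median scaling, the authors' table, no or a stricter filter (detection p under 0.01), a trended prior, array weights, an offset of 50, and each array left out.

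The members and lists were chosen with earlier results of these data known. By rule, every member is accounted for, full values go to members past the threshold or with unadjusted p under 0.05 and to the 6 brightest, and each list gives its genes past the threshold and the 3 with the smallest unadjusted p. Esr1, Nr5a2, Tsc22d3, Fkbp5 and Per1 and the vitamin D genes outside this rule were singled out after their values were seen. Protein sequences are not used here. The number of arrays limits the precision.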

Additional observations from a re-analysis of the deposited data

How the results depend on the processing

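The 113 probes called became 67 with no filter on dim probes, 202 with a trended prior variance and 175 with an offset of 50, and ranged from 28 to 90 with 1 array left out. The Vdr log2 fold change stayed positive in all 15 alternatives (0.64 to 1.27). Its call held in the 9 that kept every array (adjusted p up to 0.0419) and was lost without overexpressor 1 or any 1 control, with values of 1.05 to 1.27 when an array was left out, so the count of nuclear receptors called ranged from 0 to 1. The block on the dam changed no call among the members. Over the 7 pathway lists together, 2 genes were called, against 1 with no filter and 0 to 1 with an array left out. By list, coregulators had 1 with an offset of 50 (Hr), glucocorticoid genes 0 with no filter and 0 to 1 with an array left out, PPAR targets 2 with a trended prior (Lpl besides Fabp3) and 0 to 0 with an array left out, and oestrogen and progesterone genes 1 with the replicate block (Hsd17b1). The causes of these shifts were not tested. Members near 0 changed sign without passing: Esrra at -0.0169 in the authors' table and -0.0113 with array weights, Ppard at 0.0237 with median scaling, Rxrb at -0.0217 and Nr4a2 at 0.0802 with array weights. With 1 array left out the ranges were -0.0607 to 0.0777 for Esrra, -0.24 to 0.0562 for Nr3c1, -0.27 to 0.0450 for Rora, -0.0873 to 0.0625 for Ppard, -0.34 to 0.0553 for Rxra, -0.0631 to 0.0541 for Rxrb, -0.16 to 0.0593 for Nr2c1, -0.29 to 0.20 for Nr4a2 and -0.0624 to 0.10 for Thrap3. Dim probes such as those of Nr3c1, Thra, Hnf4a and the third Vdr probe lie close to background. Over all alternatives the third Vdr probe ranged from 0.30 to 1.09, Thra from -0.49 to -0.12 and Hnf4a from 0.04 to 0.58. How much of these ranges comes from nearness to background was not tested.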
